A study of Mus musculus with 13 samples.

Results

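The matrix metalloproteinases (MMPs), the ADAMTS enzymes and the tissue inhibitors of metalloproteinases (TIMPs) were followed in the kidneys of 2 mouse models of polycystic kidney disease and in a mouse kidney cell line. The members are the protein-coding rows of the kidney table whose symbol starts with Mmp, Adamts or Timp and a number, which gave 45 rows of 28183 and 44 symbols, with 22 MMP, 19 ADAMTS and 4 TIMP rows. The cell table, which holds 2016 genes, lists 3 of these symbols. In the Pkd1 model, KSP/Cre+;Pkd1f/f kidneys were compared with KSP/Cre-;Pkd1f/f kidneys at postnatal day 10. In the Pkd2 model, Pkhd1/Cre+;Pkd2f/f kidneys were compared with Pkhd1/Cre-;Pkd2f/f kidneys at postnatal day 20. Every kidney group held 2 libraries of C57BL/6 mice, and knockouts and controls of a model alike carried the floxed alleles. Cre acts from the promoter of kidney-specific cadherin (KSP) in tubule epithelium, and from the Pkhd1 promoter mainly in collecting ducts, and neither transgene targets the stromal, vascular or immune cells of the tissue. The titles of the Pkd2 knockouts carry the letters WT, but their genotype gives Cre+, and they were taken as knockouts. In the cell experiment, mIMCD-3 cells, a line from the mouse inner medullary collecting duct, received a gapmer, an antisense oligonucleotide that directs cleavage of its target RNA, against the long noncoding RNA Hoxb3os at 10 nM for 48 h (3 libraries) or a control treatment (2 libraries).

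MMPs are zinc-dependent proteases, made as inactive proenzymes, that cut collagens, laminins, elastin and many other proteins of the extracellular matrix, either as secreted enzymes or, in the membrane-type MMPs, at the cell surface. ADAMTS enzymes are secreted proteases with thrombospondin repeats. Their groups include the proteoglycanases, which cut large proteoglycans such as versican and aggrecan, and the procollagen N-proteinases, which trim the ends of fibrillar procollagens. TIMPs bind the active site of these enzymes and block it. In the kidney these proteins take part in the turnover of basement membranes and of the interstitial matrix, and matrix accumulation accompanies cyst growth in polycystic disease.

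Values are the authors' scaled reads per gene and library, and the kidney libraries held 30.7 to 94.4 M recovered reads, a read being worth 0.00820 to 0.0280. The floxed genes checked nothing at this level: Pkd1 had values of 31.1 and 22.7 in its controls against 24.1 and 26.03 in its knockouts, and Pkd2 had 69.0 and 61.2 in its controls against 50.7 and 53.3 in its knockouts, neither past the test, and reads over the deleted exons alone were not analysed here. Markers of kidney tubules were high in every library (the summed value of 7 proximal tubule genes was at least 582). In the knockouts, all 7 of these genes fell in both models, 7 of 9 macrophage genes rose in the Pkd1 model and 9 of 9 in the Pkd2 model, and 5 and 4 of 6 smooth muscle genes rose. By the same test, described below, 5.11% of all tested genes rose and 5.48% fell in the Pkd1 model. In the Pkd2 model 9.54% rose and 8.13% fell. The libraries were of mixed sex: Xist and the Y-linked genes marked Pkd2 knockout replicate 1 as male and both Pkd2 controls and Pkd2 knockout replicate 2 as female, and 3 of the 4 Pkd1 libraries gave reads of both. Mitochondrially encoded genes took 22.05% to 41.4% of the signal, less in the knockouts than in the controls of each model. The labels do not say that replicates are separate animals or cultures, so the p-values measure the spread between these libraries, which may be technical. In whole tissue, a lower value can come from fewer cells of a type or from less RNA per cell, which cannot be told apart.

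Of the 45 rows, 31 reached a value of 1 in 2 or more libraries and were tested (12 MMPs, 16 ADAMTS enzymes and 3 TIMPs), with limma on log2(value + 1) over all 14637 genes that passed, and a gene is called changed at a Benjamini-Hochberg adjusted p below 0.05. Fold changes below are on that scale with their standard error, which understates the change of low genes. In the Pkd1 model 12 of the 31 were called, 7 higher and 5 lower, where 10.6% of all tested genes were called (5.11% higher and 5.48% lower). In the Pkd2 model 12 of the 31 were also called, 10 higher and 2 lower, against 17.7% of all tested genes (9.54% higher and 8.13% lower). Called members thus made up 38.7% of those tested in each model. The median log2 fold change of the tested members was 0.21 in the Pkd1 model and 0.27 in the Pkd2 model, and that of all tested genes lay within 0.01 of 0. The filter keeps a low gene only where some group is high, so these counts describe the 31 and not all members. Among them, Timp1 and Mmp19 reached a value of 1 in the 4 knockouts and nowhere else, Adamts14 in the 4 controls, Mmp12 in the Pkd2 knockouts, Mmp9 and Mmp13 in the Pkd2 controls, and Adamts18 and Adamts20 in the 4 Pkd1 libraries. A call of any of these genes is no independent support for its being high in those libraries. A fit with no filter covered all 45 rows and 26812 genes, and 4 members were called in the Pkd1 model and 12 in the Pkd2 model. The 4 of the Pkd1 model were Adamts2, Adamts20, Mmp16 and Timp1, and the other members called with the filter lost the call. Calls over all genes fell from 1550 to 790 in the Pkd1 model and from 2587 to 1812 in the Pkd2 model. The 12 of the Pkd2 model were not the same genes as with the filter. Adamts14, Adamts3 and Timp2 lost the call (adjusted p 0.0794, 0.0760 and 0.0591 by limma). Mmp7 (0.0175) and Timp4 (0.0139, lower in the knockouts) were among those that gained it.

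**Figure D1:**
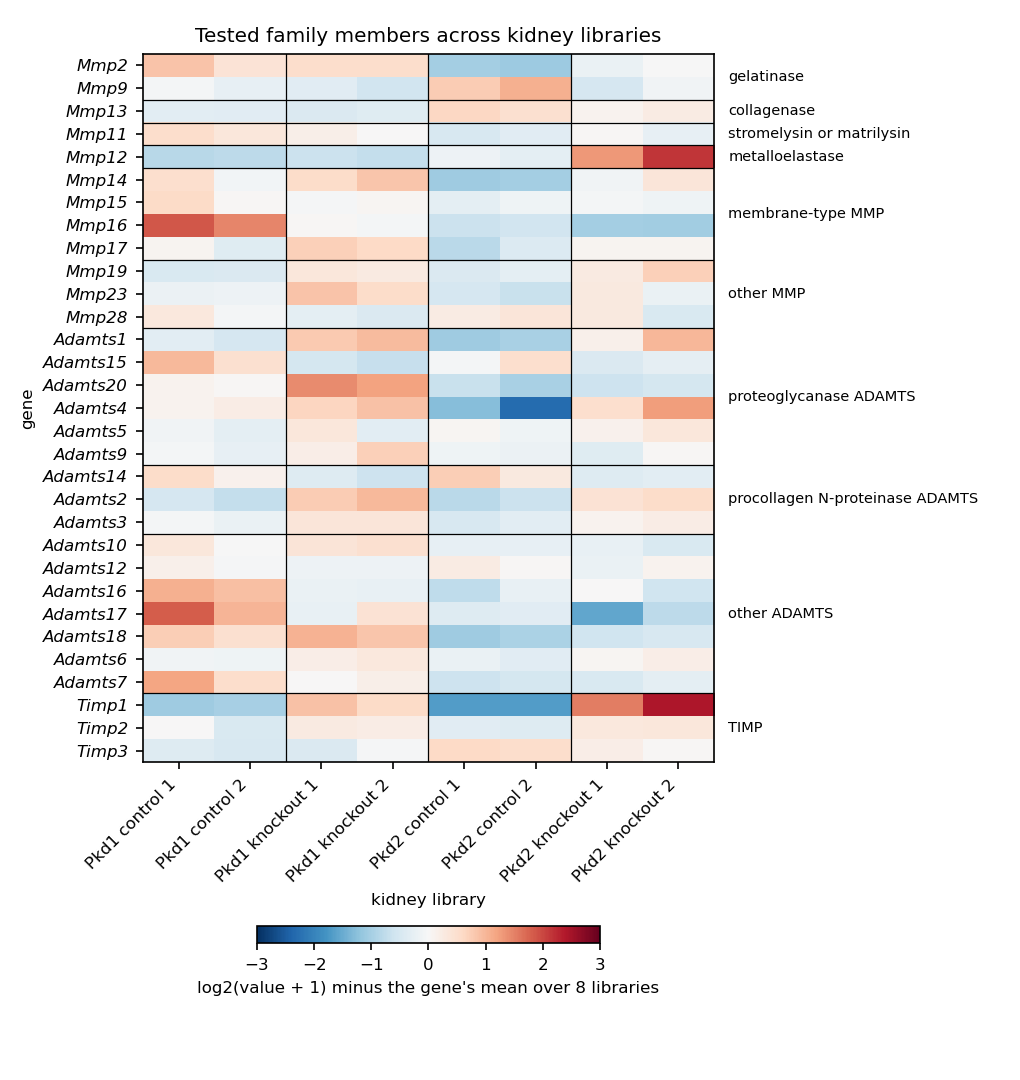
Each row is a tested member, ordered by class, and each column a kidney library; colour gives log2(value + 1) minus the mean of that gene over the 8 libraries. Timp1 and Mmp12 reach their deepest red in Pkd2 knockout replicate 2, and Mmp16 is darkest in the 2 Pkd1 controls.

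The calls rest on 2 libraries a group, and leaving out a library ended many of them. In the Pkd1 model, Adamts2, Adamts20 and Mmp16 stayed called whichever of the 4 libraries was left out. Adamts1, Adamts14, Adamts16, Adamts17, Mmp17, Mmp19 and Mmp23 lost the call without any one of them (adjusted p from 0.0520 to 0.270 by limma), Timp1 without either Pkd1 control (0.0610 and 0.0535) and Adamts15 without Pkd1 control replicate 1 or Pkd1 knockout replicate 2 (0.0541 to 0.0940). In the Pkd2 model, Adamts1, Adamts2, Adamts4 and Timp1 stayed called whichever of its 4 libraries was left out. Mmp12 stayed called without either Pkd2 control and Mmp9 without either Pkd2 knockout, and in the other 2 fits each did not pass the filter and was not tested. Adamts3, Mmp14, Mmp19, Mmp2 and Timp2 lost the call without either Pkd2 control or without Pkd2 knockout replicate 2 (0.0567 to 0.224), and Adamts14 without any one library (0.0506 to 0.185).

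Per kilobase of exon, the scale on which levels of different genes can be set side by side, Timp3 was the most abundant member over the 8 libraries (28.6 scaled reads per kb), followed by Adamts1 (16.5), Adamts10 (10.5), Timp2 (7.43), Mmp2 (6.39) and Timp1 (5.94). The order depended on the group. In Pkd1 knockouts Adamts1 (26.3) stood above Timp3 (23.6), and in the controls Adamts10 stood above Adamts1 (11.5 and 10.6 in the Pkd1 model, 8.52 and 6.89 in the Pkd2 model). The level of Timp1 was 0.974 per kb in Pkd1 controls against 6.04 in Pkd1 knockouts, and 0.214 in Pkd2 controls against 16.5 in Pkd2 knockouts, where Timp3 stood at 29.7 and Adamts1 at 22.1.

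Timp1 showed the largest rise of any tested member in both models. This gene, at chrX:20870166-20874735, encodes a secreted inhibitor of most soluble MMPs. Its values were 0.812 and 0.918 in Pkd1 controls against 6.03 and 4.70 in Pkd1 knockouts, and 0.182 and 0.199 in Pkd2 controls against 10.01 and 19.3 in Pkd2 knockouts. Knockouts and controls did not overlap in either model, and the Pkd2 knockouts were the highest of all, although replicate 2 was well above replicate 1. Limma gave a log2 fold change of 1.76 ± 0.27, adjusted p = 0.00614 for the Pkd1 knockout and 3.65 ± 0.27, adjusted p = 0.000325 for the Pkd2 knockout, or 6.20-fold and 77.1-fold between group means. The Pkd2 controls gave 7 and 9 reads for this gene, so the second ratio is imprecise, and with a pseudocount of 0.1 the Pkd2 change was 5.59. With no filter the adjusted p by limma was 0.0423 for the Pkd1 and 0.00618 for the Pkd2 knockout. Timp1 is X-linked, and with a covariate for the Y-linked signal its changes were 1.96 and 4.02. Macrophage markers moved with it (summed values of 9 genes 52.7 and 49.6 in Pkd1 controls against 138 and 128 in Pkd1 knockouts, 55.3 and 57.4 in Pkd2 controls against 216 and 270 in Pkd2 knockouts), and their part in the result was not tested.

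The other inhibitors moved less. Timp2, which besides blocking MMPs helps Mmp14 to activate pro-Mmp2, had values of 28.7 and 20.4 in Pkd1 controls against 34.2 and 33.4 in Pkd1 knockouts, and 22.2 and 21.3 in Pkd2 controls against 35.4 and 35.9 in Pkd2 knockouts. The knockouts lay above the controls without overlap in both models, and limma called the rise in the Pkd2 model (0.69 ± 0.18, adjusted p = 0.0338) and not in the Pkd1 model (0.46 ± 0.18, adjusted p = 0.143). With the Y-linked covariate the Pkd2 adjusted p was 0.0720, and the authors' deposited false discovery rate for the Pkd2 change was 0.251. Timp3, the inhibitor that is bound to the matrix and blocks ADAMTS enzymes as well, had values of 171 and 160.4 in Pkd1 controls against 167 and 218 in Pkd1 knockouts, and 338 and 323 in Pkd2 controls against 257 and 228 in Pkd2 knockouts. It was not called in either model (0.20 ± 0.20, adjusted p = 0.560 and -0.45 ± 0.20, adjusted p = 0.160 by limma), though its Pkd2 knockouts lay below both Pkd2 controls. An opposite-strand gene, Syn3, covers 21.3% of its exon bases, and no source used here says whether strand was used in counting. Timp4 was near 0 throughout, at 0 to 6 reads a library, and did not pass the filter.

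**Figure D2:**
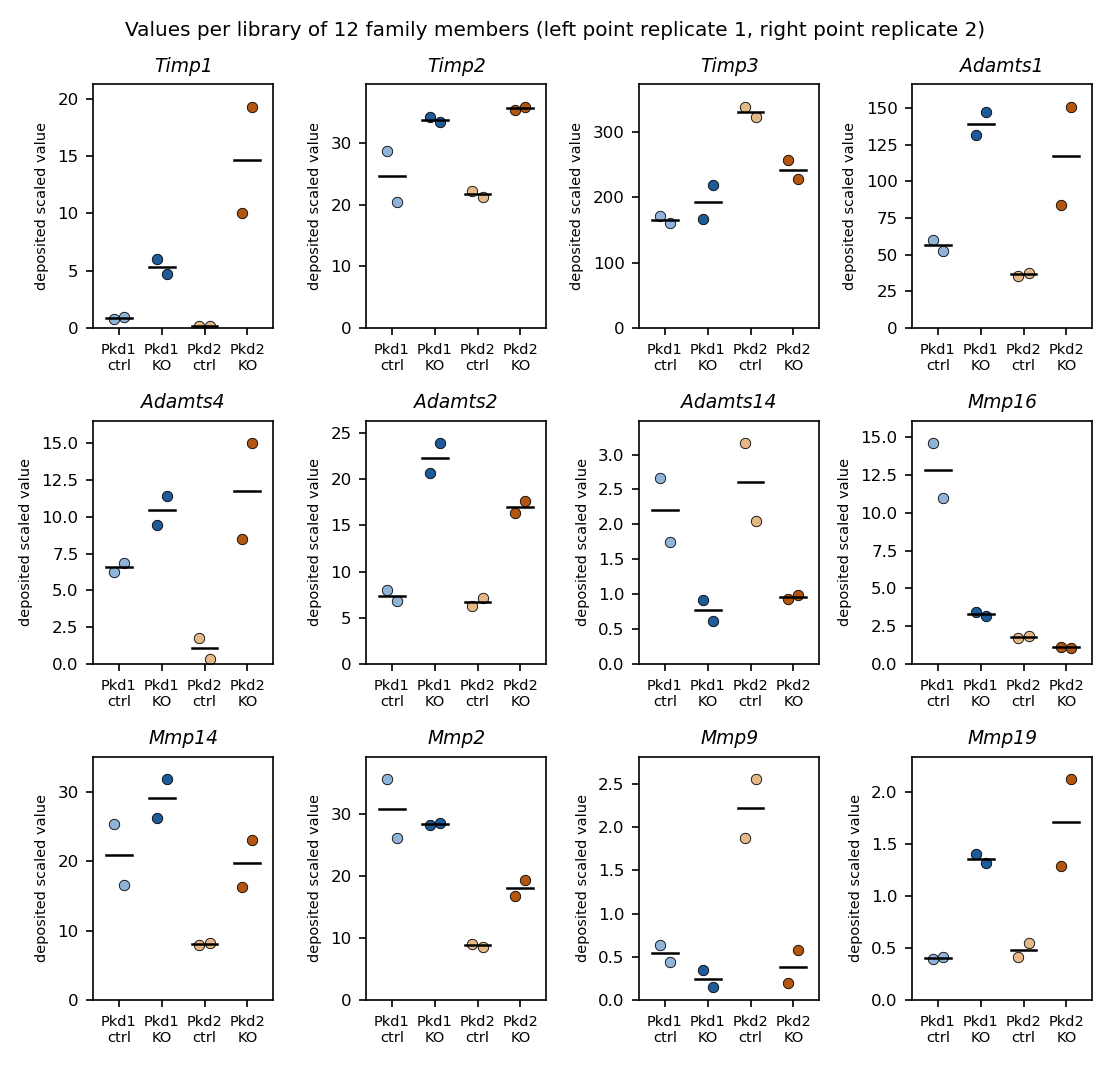
The deposited scaled value of 12 members is shown for each kidney library, with replicate 1 at the left and replicate 2 at the right of each group and a line at the mean of the 2; every axis starts at 0. Timp1, Adamts1, Adamts2 and Mmp19 are higher in the knockouts of both models, and Adamts14 is lower.

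Among the proteoglycanases, Adamts1 rose in both models. It cuts versican and aggrecan and lies beside Adamts5 on chromosome 16 (chr16:85793827-85803113). Its values were 60.00 and 52.7 in Pkd1 controls against 131 and 147 in Pkd1 knockouts, and 35.4 and 37.7 in Pkd2 controls against 83.8 and 151 in Pkd2 knockouts. All 4 knockout libraries exceeded all 4 controls. By limma the rise was 1.29 ± 0.26, adjusted p = 0.0170 with loss of Pkd1 and 1.60 ± 0.26, adjusted p = 0.00502 with loss of Pkd2. With no filter the adjusted p by limma was 0.0622 in the Pkd1 model, not called, and 0.0240 in the Pkd2 model. Its neighbour Adamts5, also an aggrecanase, was not called in either model (0.21 and 0.27).

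Adamts4, the other classical aggrecanase, rose in the Pkd2 model. Its values were 6.25 and 6.87 in Pkd1 controls against 9.46 and 11.4 in Pkd1 knockouts, and 1.79 and 0.353 in Pkd2 controls against 8.49 and 15.03 in Pkd2 knockouts. The Pkd2 controls stood far below every other library, and replicate 2 of them gave 16 reads. The change was 2.67 ± 0.35, adjusted p = 0.00244 by limma in the Pkd2 model and 0.59 ± 0.35, adjusted p = 0.314 in the Pkd1 model, where the groups did not overlap but the test was not passed.

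Adamts20, a versican-cutting enzyme known from pigment cell development in mice, rose in the Pkd1 model. Its values were 1.13 and 1.05 in Pkd1 controls against 4.31 and 3.64 in Pkd1 knockouts, and 0.260 and 0.0221 in Pkd2 controls against 0.308 and 0.393 in Pkd2 knockouts. The Pkd1 knockouts were the highest, and all Pkd2 libraries lay below the Pkd1 controls. The change was 1.25 ± 0.17, adjusted p = 0.00449 by limma in the Pkd1 model, with adjusted p = 0.0558 under a pseudocount of 0.1, and 0.25 ± 0.17, adjusted p = 0.352 in the Pkd2 model. Adamts15 went the other way, with values of 13.04 and 9.03 in Pkd1 controls against 3.92 and 3.43 in Pkd1 knockouts, and 5.87 and 9.09 in Pkd2 controls against 4.32 and 4.93 in Pkd2 knockouts. It fell in the Pkd1 model (-1.35 ± 0.24, adjusted p = 0.0105) and was not called in the Pkd2 model by limma (-0.57 ± 0.24, adjusted p = 0.135), where the groups also did not overlap. Adamts9, which cuts versican and is needed for development in mice, was not called in either model (0.61 and -0.01).

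The procollagen N-proteinases moved in opposite directions within 1 class. Adamts2, the main enzyme that removes the amino-terminal propeptide of fibrillar procollagens, had values of 8.01 and 6.78 in Pkd1 controls against 20.7 and 23.9 in Pkd1 knockouts, and 6.26 and 7.13 in Pkd2 controls against 16.3 and 17.6 in Pkd2 knockouts. The 4 knockout libraries lay above the 4 controls, and limma gave 1.47 ± 0.17, adjusted p = 0.00235 for the Pkd1 and 1.23 ± 0.17, adjusted p = 0.00287 for the Pkd2 knockouts. Adamts14, its close relative, had values of 2.67 and 1.75 in Pkd1 controls against 0.920 and 0.614 in Pkd1 knockouts, and 3.17 and 2.05 in Pkd2 controls against 0.925 and 0.994 in Pkd2 knockouts. Here the 4 knockouts lay below the 4 controls, with changes of -0.85 ± 0.22, adjusted p = 0.0422 and -0.86 ± 0.22, adjusted p = 0.0285 by limma, both from 29 to 325 reads a library. With no filter neither change was called (adjusted p 0.115 and 0.0794 by limma). Adamts3, which processes the lymphatic growth factor VEGF-C, had values of 1.36 and 1.16 in Pkd1 controls against 2.19 and 2.16 in Pkd1 knockouts, and 0.754 and 0.971 in Pkd2 controls against 1.65 and 1.90 in Pkd2 knockouts. Its knockouts lay above its controls in both models and it was called in the Pkd2 model (0.58 ± 0.16, adjusted p = 0.0409) and not in the Pkd1 model (0.49 ± 0.16, adjusted p = 0.0907) by limma, but not by edgeR in the Pkd2 model (adjusted p = 0.0516). Beside these genes, the summed value of 7 fibroblast and pericyte markers was 666 and 492 in Pkd1 controls against 1145 and 962 in Pkd1 knockouts, and 380.2 and 400.3 in Pkd2 controls against 649 and 675 in Pkd2 knockouts. Of those markers, Postn was called higher in both models and Dcn in the Pkd2 model. The sum in the Pkd1 model does not stand for the list: its median change was -0.28 there and 0.37 in the Pkd2 model, and Dcn, Lum, Pdgfra and Pdgfrb had changes of -0.52, -0.88, -0.50 and -0.28 in the Pkd1 model, not called. The part of these cells in the result was not tested.

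Of the remaining ADAMTS enzymes, 2 fell in the Pkd1 model and none was called in the Pkd2 model. Adamts16 had values of 16.95 and 14.8 in Pkd1 controls against 6.44 and 6.35 in Pkd1 knockouts, and 4.002 and 6.33 in Pkd2 controls against 7.54 and 4.62 in Pkd2 knockouts. Both Pkd1 controls stood well above the other 6 libraries, and limma gave -1.19 ± 0.25, adjusted p = 0.0212 for Pkd1 and 0.19 ± 0.25, adjusted p = 0.630 for Pkd2. Adamts17, a gene in which mutations cause a Weill-Marchesani-like syndrome in humans, had values of 34.9 and 19.9 in Pkd1 controls against 7.81 and 12.8 in Pkd1 knockouts, and 6.89 and 7.15 in Pkd2 controls against 2.47 and 4.99 in Pkd2 knockouts. The Pkd1 controls were again the highest and differed widely from each other, and limma gave -1.31 ± 0.34, adjusted p = 0.0440 and -0.81 ± 0.34, adjusted p = 0.135. Adamts7, which cuts cartilage oligomeric matrix protein, had values of 52.5 and 32.5 in Pkd1 controls against 22.5 and 25.5 in Pkd1 knockouts, and 14.1 and 15.3 in Pkd2 controls against 16.2 and 18.2 in Pkd2 knockouts and was not called in either model by limma (-0.76 ± 0.22, adjusted p = 0.0640 and 0.21 ± 0.22, adjusted p = 0.557). Adamts10, Adamts12, Adamts18 and Adamts6 were not called in either model, with changes between -0.22 and 0.47. For Adamts18 in the Pkd2 model, whose 0.47 is held down by the pseudocount, the controls gave 0 and 4 reads and the knockouts 14 and 22, without overlap. In the authors' deposited table its control minus knockout log2 fold change was -3.20 there, with a false discovery rate of 0.000167. Podocyte markers fell beside these genes (summed value of 6 genes 287 and 280.3 in Pkd1 controls against 206 and 196 in Pkd1 knockouts), and their part in the result was not tested.

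Both gelatinases changed in the Pkd2 model, in opposite directions. Mmp2, which degrades denatured collagen and type IV collagen, had values of 35.7 and 26.1 in Pkd1 controls against 28.2 and 28.6 in Pkd1 knockouts, and 9.07 and 8.63 in Pkd2 controls against 16.7 and 19.3 in Pkd2 knockouts. It rose in the Pkd2 model (0.95 ± 0.19, adjusted p = 0.0110), where the groups did not overlap, and in the Pkd1 model the groups overlapped (-0.10 ± 0.19, adjusted p = 0.765 by limma). Even the Pkd2 knockouts stayed below every Pkd1 library. Mmp9, a gelatinase abundant in neutrophils and macrophages, had values of 0.640 and 0.437 in Pkd1 controls against 0.347 and 0.148 in Pkd1 knockouts, and 1.87 and 2.56 in Pkd2 controls against 0.196 and 0.578 in Pkd2 knockouts. It fell in the Pkd2 model (-1.22 ± 0.20, adjusted p = 0.00568 by limma), from 72 and 116 reads to 7 and 25, and was not called in the Pkd1 model (-0.30 ± 0.20, adjusted p = 0.376). Mmp9 passed the filter through the Pkd2 controls alone, so the call is no independent support for its being high there. With no filter the Pkd2 adjusted p was 0.01775 by limma. Of 9 neutrophil markers, 6 were under 1 in every library. The summed value of all 9 was 1.46 and 2.56 in Pkd2 controls against 2.10 and 5.18 in Pkd2 knockouts. Of the 3 tested, Csf3r was called higher in the Pkd2 model (0.87 ± 0.26, adjusted p = 0.0484 by limma) and S100a8 and S100a9 were not called. The part of these cells in the result was not tested.

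Among the membrane-type MMPs, Mmp14, the activator of pro-Mmp2 and a collagenase in its own right, had values of 25.3 and 16.5 in Pkd1 controls against 26.2 and 31.9 in Pkd1 knockouts, and 7.90 and 8.23 in Pkd2 controls against 16.3 and 23.1 in Pkd2 knockouts. Its Pkd2 knockouts were above the Pkd2 controls (1.17 ± 0.24, adjusted p = 0.0133 by limma), and in the Pkd1 model the change was 0.48 ± 0.24, adjusted p = 0.240. Mmp16, a relative that is also anchored in the membrane, had values of 14.6 and 10.98 in Pkd1 controls against 3.42 and 3.15 in Pkd1 knockouts, and 1.74 and 1.88 in Pkd2 controls against 1.121 and 1.09 in Pkd2 knockouts. The Pkd1 controls stood far above the other 6 libraries, and the fall in the Pkd1 model was the largest of any member (-1.68 ± 0.18, adjusted p = 0.00185 by limma). In the Pkd2 model the groups did not overlap either, at values below 2, but the change was not called (-0.42 ± 0.18, adjusted p = 0.148). Mmp17, held by a lipid anchor, had values of 2.06 and 1.27 in Pkd1 controls against 3.72 and 3.41 in Pkd1 knockouts, and 0.650 and 1.19 in Pkd2 controls against 2.07 and 2.08 in Pkd2 knockouts. It was called in the Pkd1 model (0.79 ± 0.21, adjusted p = 0.0459) and narrowly missed in the Pkd2 model (0.69 ± 0.21, adjusted p = 0.0517 by limma). The Pkd1 call was lost by edgeR (adjusted p = 0.0871), with no filter, with a pseudocount of 0.1 and with the Y-linked covariate. In the authors' deposited table the sides were exchanged, with false discovery rates of 0.05435 in the Pkd1 model and 0.04557 in the Pkd2 model. Mmp15 was not called in either model (-0.29 and 0.11).

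Mmp19, a secreted enzyme that cuts basement membrane proteins, rose in both models. Its values were 0.394 and 0.415 in Pkd1 controls against 1.41 and 1.31 in Pkd1 knockouts, and 0.416 and 0.551 in Pkd2 controls against 1.29 and 2.13 in Pkd2 knockouts. The 4 knockouts lay above the 4 controls, with 16 to 92 reads a library and changes of 0.75 ± 0.19, adjusted p = 0.0378 and 0.85 ± 0.19, adjusted p = 0.0167 by limma. With no filter the adjusted p by limma was 0.0709 in the Pkd1 model, not called, and 0.03415 in the Pkd2 model. Exons of opposite-strand genes, Tmem198b among them, cover 28.3% of its exon bases, so part of its reads could belong to them. Mmp23 had values of 3.85 and 3.98 in Pkd1 controls against 8.98 and 7.03 in Pkd1 knockouts, and 2.86 and 2.47 in Pkd2 controls against 5.72 and 3.79 in Pkd2 knockouts and was called in the Pkd1 model (0.87 ± 0.21, adjusted p = 0.0350) and not in the Pkd2 model (0.63 ± 0.21, adjusted p = 0.0707 by limma). Mmp11, a stromelysin expressed by stroma near growing epithelium, had values of 12.03 and 10.5 in Pkd1 controls against 9.19 and 8.08 in Pkd1 knockouts, and 5.51 and 6.11 in Pkd2 controls against 8.30 and 6.64 in Pkd2 knockouts and was not called in either model (-0.35 ± 0.18, adjusted p = 0.246 and 0.31 ± 0.18, adjusted p = 0.265 by limma). Mmp28 was not called either (-0.49 and -0.39).

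Mmp12, the macrophage elastase, lies on chromosome 9 in a cluster of MMP genes, of which 8 are members here (Mmp3, Mmp7, Mmp8, Mmp10, Mmp12, Mmp13, Mmp20 and Mmp27). Its values were 0.0246 and 0.0656 in Pkd1 controls against 0.174 and 0.106 in Pkd1 knockouts, and 0.650 and 0.485 in Pkd2 controls against 3.48 and 7.08 in Pkd2 knockouts. Only in the Pkd2 knockouts did it reach a value of 1, with 124 and 306 reads against 25 and 22 in the Pkd2 controls, and replicate 2 was about as far above replicate 1 as in Timp1. The change was 1.94 ± 0.26, adjusted p = 0.00244 by limma in the Pkd2 model and 0.12 ± 0.26, adjusted p = 0.789 in the Pkd1 model, which had 3 to 10 reads a library. The gene passed the filter through the Pkd2 knockouts alone, so the call is no independent support for its being high there; with no filter the adjusted p was 0.0139. As given for Timp1, macrophage markers were highest in the same libraries, and all 9 rose in the Pkd2 model. In the Pkd1 model, where Mmp12 was not called, 7 of the 9 rose. The part of macrophages in the Mmp12 result was not tested. Of its exon bases 2.17% overlap Mmp1b on the opposite strand.

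Mmp3 and Mmp7 showed the same libraries high, from too few reads to be tested in the fit. Mmp3, a stromelysin that activates other pro-MMPs, gave no read in Pkd1 controls against 5 and 8 in Pkd1 knockouts, and 6 and 2 in Pkd2 controls against 19 and 102 in Pkd2 knockouts. Mmp7, matrilysin, a small MMP made by epithelia and long studied as a marker of kidney injury, gave no read in Pkd1 controls against 1 and 2 in Pkd1 knockouts, and 0 and 1 in Pkd2 controls against 27 and 68 in Pkd2 knockouts. In a fit without the filter, the Pkd2 change of Mmp7 was 1.07 ± 0.16 (adjusted p = 0.0175 by limma) and that of Mmp3 was 1.05 ± 0.32 (adjusted p = 0.111). Opposite-strand exons of AV064505 cover 11.5% of the exon bases of Mmp7.

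Mmp13, the main collagenase of mice, had values of 0.148 and 0.131 in Pkd1 controls against 0.0695 and 0.106 in Pkd1 knockouts, and 1.22 and 1.01 in Pkd2 controls against 0.533 and 0.694 in Pkd2 knockouts. The Pkd2 knockouts lay below the Pkd2 controls, and the change was not called in either model (-0.07 ± 0.15, adjusted p = 0.813 and -0.39 ± 0.15, adjusted p = 0.112 by limma). Mmp8, the neutrophil collagenase, had at most 14 reads. Besides Mmp3, Mmp7, Mmp8 and Timp4, the rows that did not pass the filter were Adamts8, Adamts13, Adamts19, Mmp10, Mmp20, Mmp21, Mmp24, Mmp25 and the pair of rows named Mmp27, whose reads stood in a fixed ratio in every library that had any. Of the 14 rows left out, 10 stayed under a value of 0.5 in every library, and Adamts8, Adamts19, Mmp3 and Mmp7 passed it in at least 1.

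**Figure D3:**
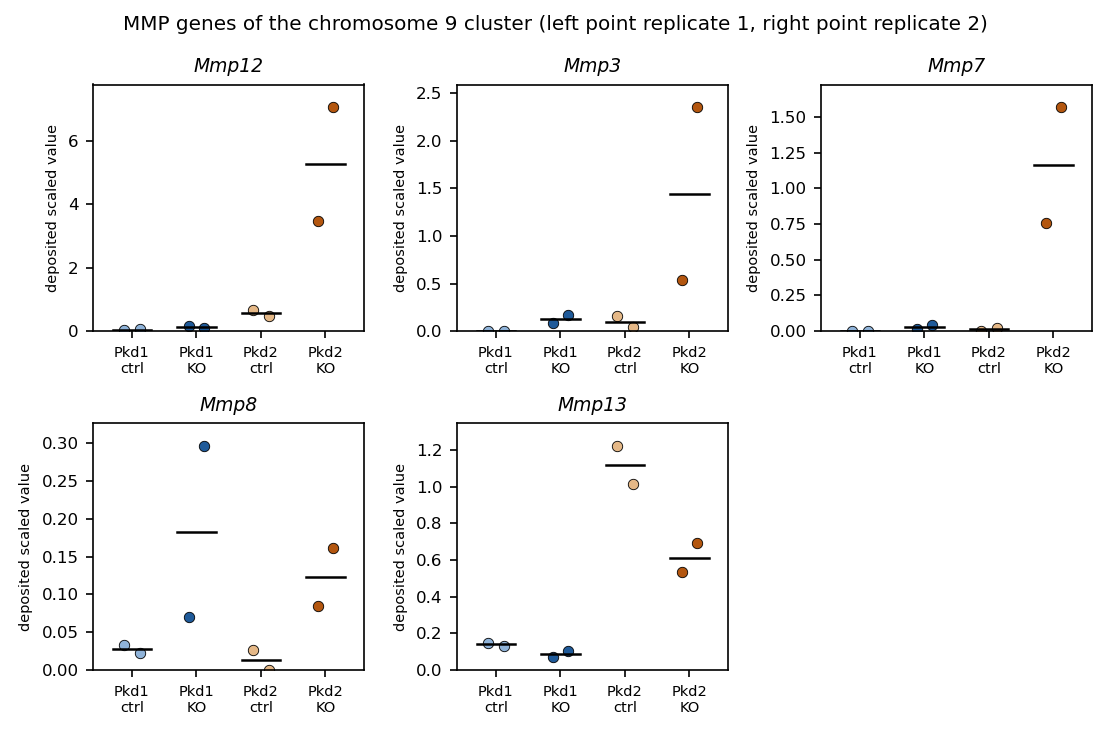
The deposited scaled value of 5 MMP genes of the chromosome 9 cluster is shown for each kidney library, with a line at the mean of each group; axes start at 0 and differ between genes. Mmp12, Mmp3 and Mmp7 are highest in the 2 Pkd2 knockouts, while Mmp13 is highest in the Pkd2 controls.

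Windows of 250 bases before a start listed by RefSeq are shown for the 4 cluster genes with the most reads, since 3 of them were highest in the same libraries, and for Timp1 and Adamts1, which rose in both models. They are RefSeq sequences on GRCm38.p6, written 5′ to 3′ on the strand of the gene, and capitals mark the AP-1 letters TGANTCA or the TATA letters TATAAA. AP-1 is the dimer of Fos and Jun proteins, and a site for it close to a TATA box is the classical layout of inducible MMP promoters. Where a gene had several listed windows, the one nearest the gene start in the GENCODE annotation is shown, and for Mmp12 both are. The start behind the first Mmp12 window lies 16 bases inside the annotated gene, and that behind the second 2993 bases inside it. The Mmp7 window that is not shown holds neither motif. The windows are at chr9:7445572-7445821 (Mmp3), chr9:7691840-7692089 (Mmp7), chr9:7344147-7344396 and chr9:7347124-7347373 (Mmp12), chr9:7272264-7272513 (Mmp13), chrX:20869916-20870165 (Timp1), all on the forward strand, and chr16:85803114-85803363 (Adamts1) on the reverse strand.
Mmp3: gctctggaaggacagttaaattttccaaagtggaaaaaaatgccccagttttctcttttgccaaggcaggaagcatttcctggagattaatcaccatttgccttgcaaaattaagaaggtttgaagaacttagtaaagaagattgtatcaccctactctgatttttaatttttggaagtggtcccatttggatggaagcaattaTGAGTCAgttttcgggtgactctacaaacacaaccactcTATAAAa
Mmp7: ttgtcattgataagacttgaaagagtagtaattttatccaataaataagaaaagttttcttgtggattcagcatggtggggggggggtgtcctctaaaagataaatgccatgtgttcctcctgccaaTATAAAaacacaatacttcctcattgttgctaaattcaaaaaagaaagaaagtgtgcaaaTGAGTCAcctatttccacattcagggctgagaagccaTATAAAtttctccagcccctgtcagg
Mmp12 (first window): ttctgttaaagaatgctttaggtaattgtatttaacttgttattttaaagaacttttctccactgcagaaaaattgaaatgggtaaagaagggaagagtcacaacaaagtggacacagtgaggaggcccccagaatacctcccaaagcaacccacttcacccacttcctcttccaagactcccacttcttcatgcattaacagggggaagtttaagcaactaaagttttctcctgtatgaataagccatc
Mmp12 (second window): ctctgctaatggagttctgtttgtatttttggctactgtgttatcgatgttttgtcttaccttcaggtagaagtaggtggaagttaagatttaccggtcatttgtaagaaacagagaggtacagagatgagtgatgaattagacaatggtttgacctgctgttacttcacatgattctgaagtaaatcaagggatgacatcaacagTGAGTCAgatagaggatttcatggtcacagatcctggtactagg
Mmp13: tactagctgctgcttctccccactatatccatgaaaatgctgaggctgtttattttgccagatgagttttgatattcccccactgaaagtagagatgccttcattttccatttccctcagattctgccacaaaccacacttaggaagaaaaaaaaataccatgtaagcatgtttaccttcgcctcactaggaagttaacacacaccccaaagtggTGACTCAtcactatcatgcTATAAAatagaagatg
Timp1: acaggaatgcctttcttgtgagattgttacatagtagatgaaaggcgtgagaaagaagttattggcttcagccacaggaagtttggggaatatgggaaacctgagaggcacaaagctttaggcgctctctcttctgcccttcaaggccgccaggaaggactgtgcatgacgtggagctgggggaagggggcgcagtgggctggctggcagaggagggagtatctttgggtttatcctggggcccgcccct
Adamts1: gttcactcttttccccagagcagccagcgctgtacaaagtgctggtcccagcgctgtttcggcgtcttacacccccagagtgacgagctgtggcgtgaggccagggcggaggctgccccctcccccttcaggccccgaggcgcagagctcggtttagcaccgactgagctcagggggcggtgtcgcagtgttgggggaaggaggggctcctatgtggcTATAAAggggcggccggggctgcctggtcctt

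The AP-1 letters began 46 bases before the start in Mmp3, 63 in Mmp7, 44 in the second window of Mmp12 and 35 in Mmp13, and the TATA letters 7, 26 and 16 bases before it in Mmp3, Mmp7 and Mmp13, with another match 123 bases before it in Mmp7. The Timp1 window and the first Mmp12 window held neither, and that of Adamts1 held the TATA letters 32 bases before the start. Both strands were searched. Of the 44 symbols, 30 had a window. Counting any window of a gene, the AP-1 letters stood in 6, all in the chromosome 9 cluster (6 of 8, with Mmp10 and Mmp20 besides the 4 shown), and in none of the 22 others. Counting the window nearest the annotated start, they stood in 5 of the 8, without Mmp12. Over all genes, counting any window of a gene, 7.82% of 27025 genes held the AP-1 letters and 14.3% the TATA letters, and of the 32851 windows 6.75% and 12.4% did. A match is a string of letters and no measured binding. Mmp13, with both motifs, was highest in the Pkd2 controls, and the part of either motif in these levels was not tested.

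The members called in the 2 models overlapped in part. Adamts1, Adamts2, Mmp19 and Timp1 were called higher and Adamts14 lower in both, 5 of the 12 called in each model (41.7% of either list), and no member was called in opposite directions. Over all tested genes, 966 were called in the same direction in both models, 62.3% of those called in the Pkd1 model and 37.3% of those in the Pkd2 model, and 5 in opposite directions, and the difference between these shares and those of the members was not tested. The models differ in the gene deleted, the Cre line and the age, which cannot be told apart. The difference of the knockout effects was called for 0 of the 31 members by limma and for 0 by edgeR, where limma called 0.00683% of all tested genes. By limma, 12 of the 31 had an unadjusted p below 0.05, where 1207 of all 14637 tested genes did. The members with the largest differences were Adamts4 (Pkd1 effect minus Pkd2 effect -2.07 ± 0.50, adjusted p = 0.221), Timp1 (-1.89 ± 0.38, adjusted p = 0.157), Mmp12 (-1.82 ± 0.36, adjusted p = 0.153), Adamts16 (-1.38 ± 0.35, adjusted p = 0.262) and Mmp16 (-1.26 ± 0.26, adjusted p = 0.157), so that none can be said to respond differently in the models by this test. Without Pkd2 knockout replicate 1 the difference was called for Timp1 (-2.33, adjusted p = 0.0221 by limma). In the Pkd2 knockouts, replicate 2 was above replicate 1 in all 10 members that rose, by a median of 1.53-fold (1.01 to 2.04), compared with 1171 of 1397 over all genes that rose and a median of 1.29-fold.

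**Figure D4:**
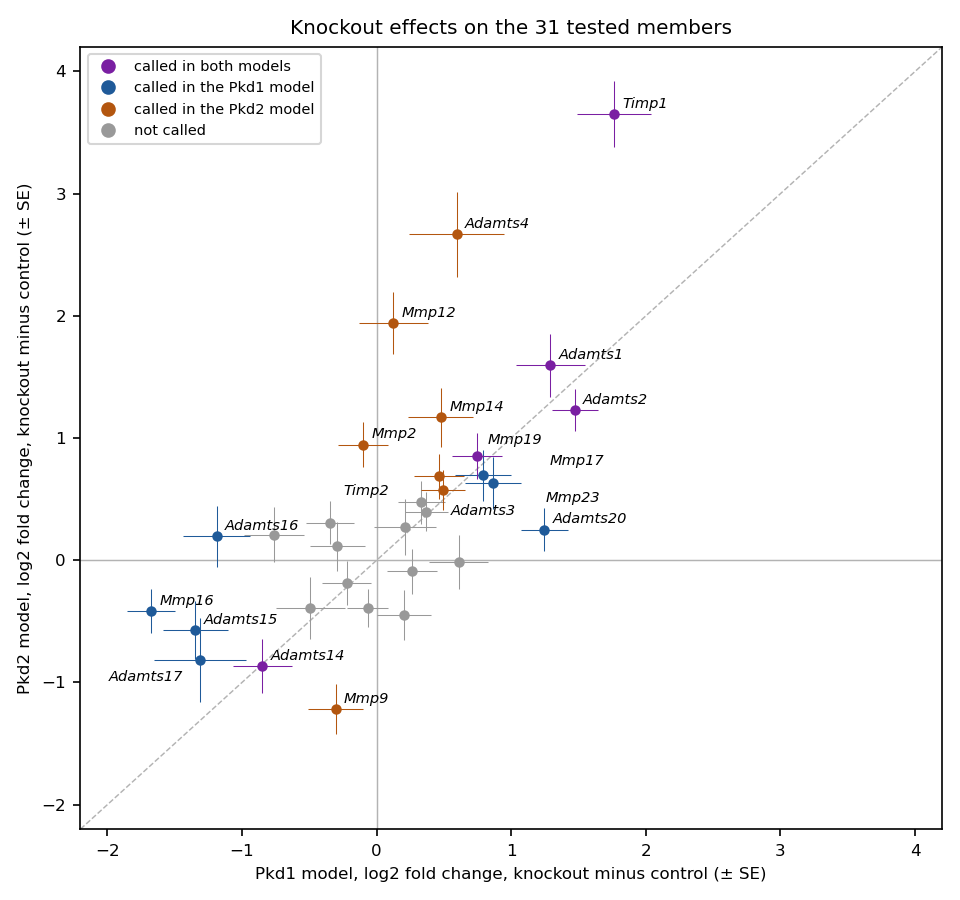
Each point is a tested member, with its log2 fold change (knockout minus control, on log2(value + 1)) in the Pkd1 model on the x axis and in the Pkd2 model on the y axis, bars giving the standard error; the dashed line marks equal change. Timp1, Adamts4 and Mmp12 lie furthest above that line, and Adamts14 sits on it in the lower left.

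In the authors' deposited table, which covers every row without the filter used here, 13 of the 45 members passed a false discovery rate of 0.05 in the Pkd1 model (7 higher and 6 lower in the knockouts) and 16 in the Pkd2 model (13 higher and 3 lower), where 7.94% and 10.3% of all rows did. That table also counted low members that were not tested here. Some members called here did not pass there: Mmp17 and Mmp23 in the Pkd1 model (false discovery rates 0.05435 and 0.06495). In the Pkd2 model these were Adamts3 (0.0954), Mmp2 (0.0538) and Timp2 (0.251). In the authors' deposited table Mmp3 (false discovery rates 0.000187 and 6.81e-10) and Mmp8 (0.0135 and 0.0497) were higher in the knockouts of both models. Mmp8 gave 4 and 1 reads in Pkd1 controls against 4 and 14 in Pkd1 knockouts, and 1 and 0 in Pkd2 controls against 3 and 7 in Pkd2 knockouts. Limma with no filter called neither gene in either model (adjusted p 0.279 and 0.366 for Mmp8, 0.856 and 0.111 for Mmp3).

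The controls of the 2 models differ in age (day 10 and day 20), floxed gene and Cre line together, and they are the same libraries as in the knockout comparisons. Between them, 13 of the 31 members were called, 10 lower and 3 higher at day 20, where 12.3% of all tested genes were called (7.26% lower and 5.04% higher), and the median log2 difference of the members was -0.42. Mmp16 differed most (-2.29 ± 0.18, adjusted p = 0.000455 by limma), and Mmp2 (-1.68 ± 0.19, adjusted p = 0.00138) and Mmp14 (-1.24 ± 0.24, adjusted p = 0.0125) were lower as well, so that the gelatinase and its activator were lower together in the older controls. With the Y-linked covariate Mmp2 kept the call and Mmp14 lost it. Among the ADAMTS enzymes, those lower at day 20 included Adamts4 (-1.96 ± 0.35, adjusted p = 0.00910), Adamts17 (-1.77 ± 0.34, adjusted p = 0.0122), Adamts16 (-1.48 ± 0.25, adjusted p = 0.00743), Adamts7 (-1.43 ± 0.22, adjusted p = 0.00560) and Adamts20 (-0.88 ± 0.17, adjusted p = 0.0133), by limma.

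Adamts18, a gene linked to eye and kidney development in mice, had values of 2.48 and 1.92 in Pkd1 controls against 3.35 and 2.71 in Pkd1 knockouts, and 0 and 0.0882 in Pkd2 controls against 0.392 and 0.509 in Pkd2 knockouts. It was at 302 and 88 reads in the Pkd1 controls and at 0 and 4 in the Pkd2 controls, and limma gave -1.61 ± 0.17, adjusted p = 0.00131. Mmp11 was lower too (-0.85 ± 0.18, adjusted p = 0.0173). Higher at day 20 were Mmp9 (1.06 ± 0.20, adjusted p = 0.0121), Timp3 (0.99 ± 0.20, adjusted p = 0.0154) and Mmp13 (0.89 ± 0.15, adjusted p = 0.00777), the last from 18 and 6 reads to 47 and 46. Mmp9 and Mmp13 passed the filter through the Pkd2 controls alone, and Adamts18 and Adamts20 through the Pkd1 libraries alone. Their calls are no independent support for being high there. With no filter the adjusted p by limma was 0.0301 for Mmp9, 0.00672 for Mmp13, 0.00738 for Adamts18 and 0.0281 for Adamts20. Timp1 was lower at day 20 without reaching the call (-0.65 ± 0.27, adjusted p = 0.164 by limma), and it was called by edgeR (-2.14, adjusted p = 0.0167) and with a pseudocount of 0.1 (-1.73, adjusted p = 0.0126). Leaving out any one of the 4 controls kept Adamts18, Mmp16 and Mmp2 called, ended the call of Adamts20, Mmp11 and Timp3 in every case and that of Adamts16, Adamts17, Adamts4, Adamts7 and Mmp14 in some. Mmp13 and Mmp9 lost the call without either Pkd1 control and were not tested without a Pkd2 control. Both Pkd2 controls gave Xist reads and almost no Y-linked reads, and with the Y-linked covariate 7 of the 31 were called. Calls over all tested genes then fell from 1801 to 1077. Beside them, 4 of 6 smooth muscle markers were called lower at day 20 (summed value 137 and 116 at day 10, 32.3 and 48.2 at day 20), 5 of 6 podocyte markers lower (287 and 280.3 against 163 and 167) and 4 of 5 markers of the thick ascending limb higher (1098 and 889 against 4278 and 4215). The part of these cells in the result was not tested.

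**Figure D5:**
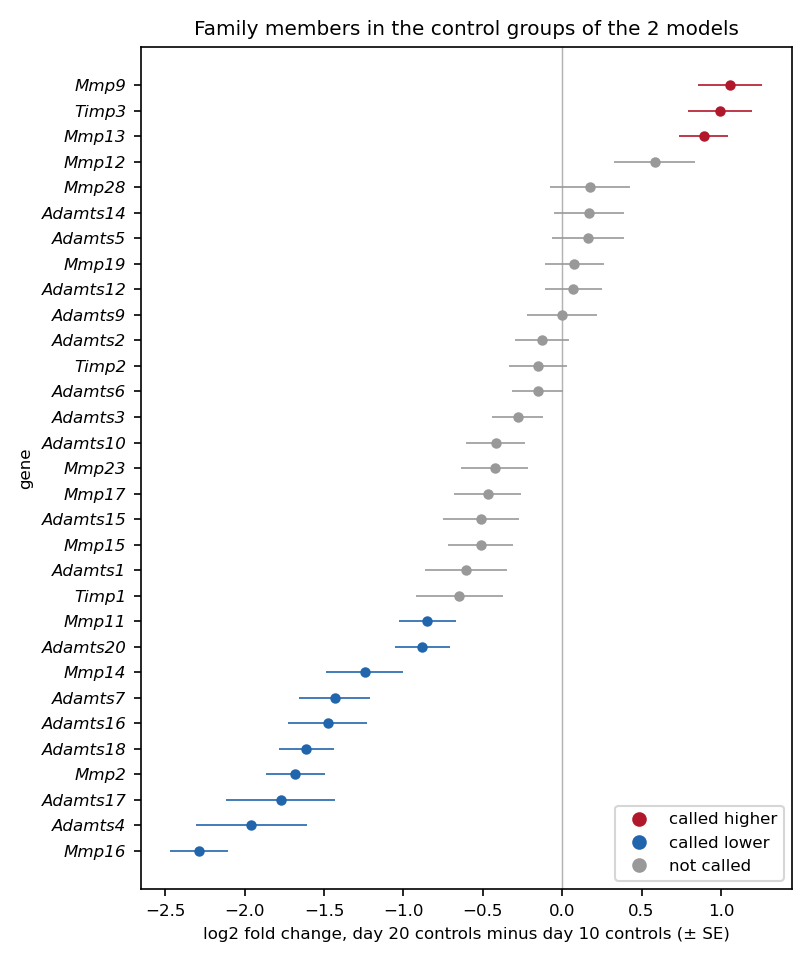
Points give the log2 difference of each tested member between the controls of the Pkd2 model (day 20) and those of the Pkd1 model (day 10) on the x axis, with bars for the standard error, ordered by size. The 10 members called lower reach from -2.29 (Mmp16) to -0.85 (Mmp11), and 3 called higher stand at the top.

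Other proteases and partners of the family were described from lists of known genes. Beside the calls below, 10.6% of all tested genes were called in the Pkd1 model and 17.7% in the Pkd2 model. In the plasminogen system, whose plasmin activates several pro-MMPs, Serpine2, an inhibitor of plasminogen activators, rose in the Pkd2 model (1.06 ± 0.15 by limma). Of 9 tested membrane-bound ADAMs, Adam23 rose in both models (2.17 ± 0.34 and 1.56 ± 0.34), and Adam19 (1.25 ± 0.23) and Adam8 (2.15 ± 0.56), a protease of immune cells, rose in the Pkd2 model.

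Meprins are metalloproteases of the proximal tubule brush border, and the subunit Mep1b fell in both models (-1.88 ± 0.23 and -1.33 ± 0.23 by limma) and Mep1a in the Pkd1 model (-1.08 ± 0.25). Proximal tubule markers fell beside them (summed value 1927 and 2091 in Pkd1 controls against 582 and 677 in Pkd1 knockouts, 3010 and 3819 in Pkd2 controls against 1506 and 995 in Pkd2 knockouts), and their part in the result was not tested. Bmp1, the procollagen C-proteinase that works at the other end of procollagen from Adamts2, rose in the Pkd2 model (0.89 ± 0.25, adjusted p = 0.0435). Of 5 tested members of that list, 2 fell in the Pkd1 model, and 1 rose and 1 fell in the Pkd2 model. Of all tested genes, 5.48% fell in the Pkd1 model, and 9.54% rose and 8.13% fell in the Pkd2 model. Among 7 ADAMTS-like proteins and papilin, which share the ADAMTS repeats and lack the protease domain, Papln fell in both models (-1.38 ± 0.28 and -1.06 ± 0.28), Adamtsl4 rose in the Pkd1 model (1.04 ± 0.21) and Thsd4 in the Pkd2 model (1.16 ± 0.23).

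Of 10 tested regulators of MMP activity, Sdc1, a cell-surface proteoglycan, and Spock2, a testican, rose in both models (Sdc1 by 1.04 ± 0.20 and 1.49 ± 0.20, Spock2 by 1.23 ± 0.19 and 0.92 ± 0.19). In the Pkd2 model Spock3 rose (0.98 ± 0.19) and Pcsk6, a proprotein convertase, fell (-2.27 ± 0.23, adjusted p = 0.000866 by limma). Of 15 tested matrix substrates, 4 rose and 1 fell in the Pkd1 model, and 6 rose and 1 fell in the Pkd2 model, with list medians of 0.97 and 0.86. Thrombospondin 1 (Thbs1) rose by 2.29 ± 0.25 and 1.53 ± 0.25 and fibronectin (Fn1) by 1.36 ± 0.36 and 1.64 ± 0.36, while the laminin chain Lama1 fell in both (-1.27 ± 0.23 and -0.80 ± 0.23).

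In the mIMCD-3 cells, the 3 listed members were lower after the Hoxb3os gapmer. The deposited table holds only genes that the authors found changed, and here 2015 of its 2016 genes (100% to 3 digits) were called, 55.6% of them lower, so a call says little about these members. Adamts1 had values of 10482 and 11969 with the control treatment and 8888, 8920 and 8416 with the Hoxb3os gapmer (-0.36 ± 0.05, adjusted p = 3.83e-08 by limma). Timp2 had 6641 and 6758 against 5817, 5765 and 6038 (-0.19 ± 0.04, adjusted p = 0.000214), and Mmp15 had 183 and 162 against 97.4, 129.7 and 104.7 (-0.65 ± 0.15, adjusted p = 0.000307). The median change over all listed genes was -0.14. Adamts1 was called higher in the knockout kidneys of both models and Timp2 in those of the Pkd2 model, but the kidney and cell tables were scaled separately and their levels are not compared. Hoxb3os itself was not analysed here in the cells.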

How the data were processed

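RNA of 8 kidney samples and 5 cell samples was extracted with Trizol and made into TruSeq libraries, per the labels' protocols. For the kidneys (mm10) the submitters' processing notes list RSEM 1.2.22, Cufflinks 2.2.1, edgeR, STAR 2.4.2a and FastQC 0.11.2. For the cells (GRCm38) they list DESeq2 1.12.3, SAMtools 1.0, STAR 2.4.2a and Trimmomatic 0.32. No source used here gives the role of each tool, the annotation or any use of strand.

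For the kidneys the authors deposited a scaled signal, which the values show to be reads times a factor per library. In each library 94.9% to 96.0% of the values under 1000 reads were whole multiples of the value of a read, within 0.02, and these reads gave the depth. In Pkd1 control replicate 1 a few values lay below a read, and its reads are the least certain. The cell signal deposited by the authors is reads over a size factor. The deposited log2 fold changes are control minus knockout (kidneys) and gapmer minus control (cells). The deposited p-values used here are adjusted. The unadjusted p-values and the likelihood ratio score of the kidneys, deposited by the authors, were not used.

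Genes reaching a value of 1 in 2 or more libraries were tested with limma 3.58.1 (trend, R 4.3.3) on log2(value + 1), in 1 fit of 4 groups over 8 libraries (4 residual degrees of freedom, prior 4.77), as the written design foresaw for values that are not counts. The cells had a fit of their own (3 residual degrees of freedom, prior 36.2). Marker and pathway genes were read as lists, with no set test. The method was tested on simulated data with known changes. Replicate numbers did not pair the samples. Exon lengths, overlaps and coordinates come from a GENCODE annotation of GRCm38, and promoter windows from RefSeq on GRCm38.p6.

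Every member past the filter is named, those called in any kidney comparison and all TIMPs with values per library, and of each list up to 4 called genes by smallest adjusted p; a few results are not reported here. The members and lists were chosen with earlier results of these data known. The alternatives tried were a pseudocount of 0.1, no filter, quantile scaling, edgeR 4.0.16 on recovered reads, fits on 4 libraries alone, a replicate block, a Y-linked covariate and leaving out each library.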

Additional observations from a re-analysis of the deposited data

How the results depend on the processing

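Leaving out 1 library at a time, 3 to 5 members were called in the Pkd1 model, 5 to 11 in the Pkd2 model, 4 to 7 between the controls, 0 to 1 for the difference between models and 3 to 3 in the cells, of 29 to 31 kidney members tested, since Mmp12, Mmp9 and Mmp13 can then miss the filter. Calls over all genes moved too, from 1550 to between 325 and 788 in the Pkd1 model, from 2587 to between 621 and 4253 in the Pkd2 model and from 1801 to between 403 and 780 between the controls; a group of 1 library is then assumed to vary like the others. Without the filter on low values 4 members were called in the Pkd1 model, and the Y-linked covariate left 7 between the controls, where calls over all genes fell from 1801 to 1077. Over single genes, 549 alternatives to 48 results kept the direction and the side of the threshold in 421 cases, lost the call in 121, gained it in 5 and changed sign in 2. Both sign changes were those of Timp2 (-0.23 for the difference between models and -0.15 between the controls), which moved to 0.0100 and 0.086 without Pkd1 control replicate 1 and to -0.46 and -0.39 without replicate 2, not called in any; the cause was not tested. Same-numbered libraries did not deviate together (correlation of deviations -0.38 to -0.05 in the kidneys), and the replicate block gave 10, 11, 0 and 13 called members for the Pkd1 model, the Pkd2 model, their difference and the controls, and 3 in the cells. Over all genes the block gave 1231, 2200, 0 and 1511 calls, and 1967 in the cells. With the numbers crossed, a choice made after seeing the data, 8 members were called in the Pkd1 model and 13 between the controls, against 1266 and 1692 over all genes. Low genes changed most in size: with a pseudocount of 0.1 the Pkd2 change was 5.59 for Timp1, 2.94 for Mmp12, -2.35 for Mmp9, 1.60 for Mmp19 and -1.33 for Adamts14, and the difference between controls was -4.06 for Adamts18 and 2.34 for Mmp13. Over all genes, no filter gave 790 calls in the Pkd1 model in place of 1550. With 2 libraries a group and as few as 7 reads for Timp1 in a Pkd2 control, small changes of low members were not detectable at this depth. In the cells, edgeR and the test without a filter were not run, since the deposited genes are a selection.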
